A study of Caenorhabditis elegans with 16 samples.

Results

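The transcripts of 9 genes at the centre of the target of rapamycin (TOR) and AMP-activated protein kinase (AMPK) pathways were followed in whole Caenorhabditis elegans. The genes were taken by name, let-363, daf-15, rict-1, raga-1, ragc-1, rheb-1, rsks-1, aak-1 and aak-2, and all 9 were found among the 42048 loci of the joined expression tables with a value in each of 16 libraries. The libraries form 4 groups of 4, all from whole bodies on day 1 of adulthood, grown at 20 °C and fed HT115 bacteria carrying the L4440 vector. Strain SHU47, labelled with genotype glp-1, was fed mxl-2 RNAi, mml-1 RNAi or the bacteria that the labels call Luc. Strain TU3401, with no further genotype given, was fed Luc.

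The sample names place SHU47 in the TU3401 background, which is known to lack the double-stranded RNA channel SID-1 outside neurons, so that RNA interference by feeding acts mainly in neurons. No glp-1 allele is named in the labels. Loss of the Notch receptor GLP-1 is known to remove the germline and to lengthen life. MML-1, the worm Mondo protein, and MXL-2, the worm Mlx protein, bind DNA together as a pair of transcription factors. No label tells whether replicates came from separate cultures, so the p-values measure the spread between these libraries, which may be technical.

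TOR is a protein kinase that promotes growth when nutrients are plentiful. It works in TOR complex 1, which is built on Raptor, is recruited to the lysosome by Rag GTPases and is switched on by Rheb, and in TOR complex 2, which is built on Rictor. AMPK is a kinase of a catalytic alpha, a beta and a gamma subunit that is active when cellular energy is low and restrains TOR complex 1. In this worm, lower TOR signalling and the AMPK subunit AAK-2 are both known to be tied to longer life.

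The files gave RPKM, reads scaled to the length of the coding sequence and to the depth of the library. Whole reads could be recovered from these values and summed to between 18817645 and 27228089 reads in a library. Each of the 9 genes had between 270 and 6275 reads in every library, and counting error weighed most for rheb-1, which had the fewest. The glp-1 transcript stood at 2.08 to 4.32 RPKM in the 12 glp-1 libraries, against 69.2 to 75.6 RPKM in TU3401. The sid-1 transcript was present in every library, at 138 to 264 RPKM in the glp-1 libraries and 112 to 149 RPKM in TU3401. Values from whole bodies do not tell which cells held it. The knockdown targets were not lower in the libraries labelled for them. The mml-1 transcript had 22.9 to 91.5 RPKM under mml-1 RNAi, against 11.2 to 35.2 RPKM under Luc in glp-1 worms, and mxl-2 had 29.3 to 733 RPKM under mxl-2 RNAi, against 20.99 to 30.3 RPKM under Luc. A library labelled mml-1 RNAi, replicate 3, also held 308 RPKM of mxl-2, so the knockdown groups are named by their labels only. The summed RPKM of 12 germline markers was 12.1 to 22.3 in the glp-1 libraries, against 4242 to 4366 in TU3401, and in the glp-1 Luc group 2 of these markers, pgl-3 and htp-3, were at 0 in every library.

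The first question was how the 9 genes differ between worms without and with a germline on the same bacteria. All 7 genes of the TOR side were lower in glp-1 Luc than in TU3401 Luc, the catalytic AMPK gene aak-2 was higher, and aak-1 was not called. A gene was called when its limma adjusted p was under 0.05, with Benjamini-Hochberg adjustment over the 13563 genes tested. The background was high, since 87.6% of all genes tested were called, 46.1% as lower and 41.5% as higher, and the libraries of the 2 groups lay wholly apart for 45.0% of all genes on the lower side and 38.4% on the higher side. The count of 8 called genes of 9, all 8 with libraries wholly apart, is near that background. The median log2 fold change was -1.13 over the 9 genes and -0.06 over all genes. RPKM is a share of a library, and in whole bodies fewer cells of a type and less RNA per cell cannot be told apart. Loss of germline transcripts coincided with the genotype, so its part in these differences cannot be told apart from other effects of glp-1.

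**Figure D1:**
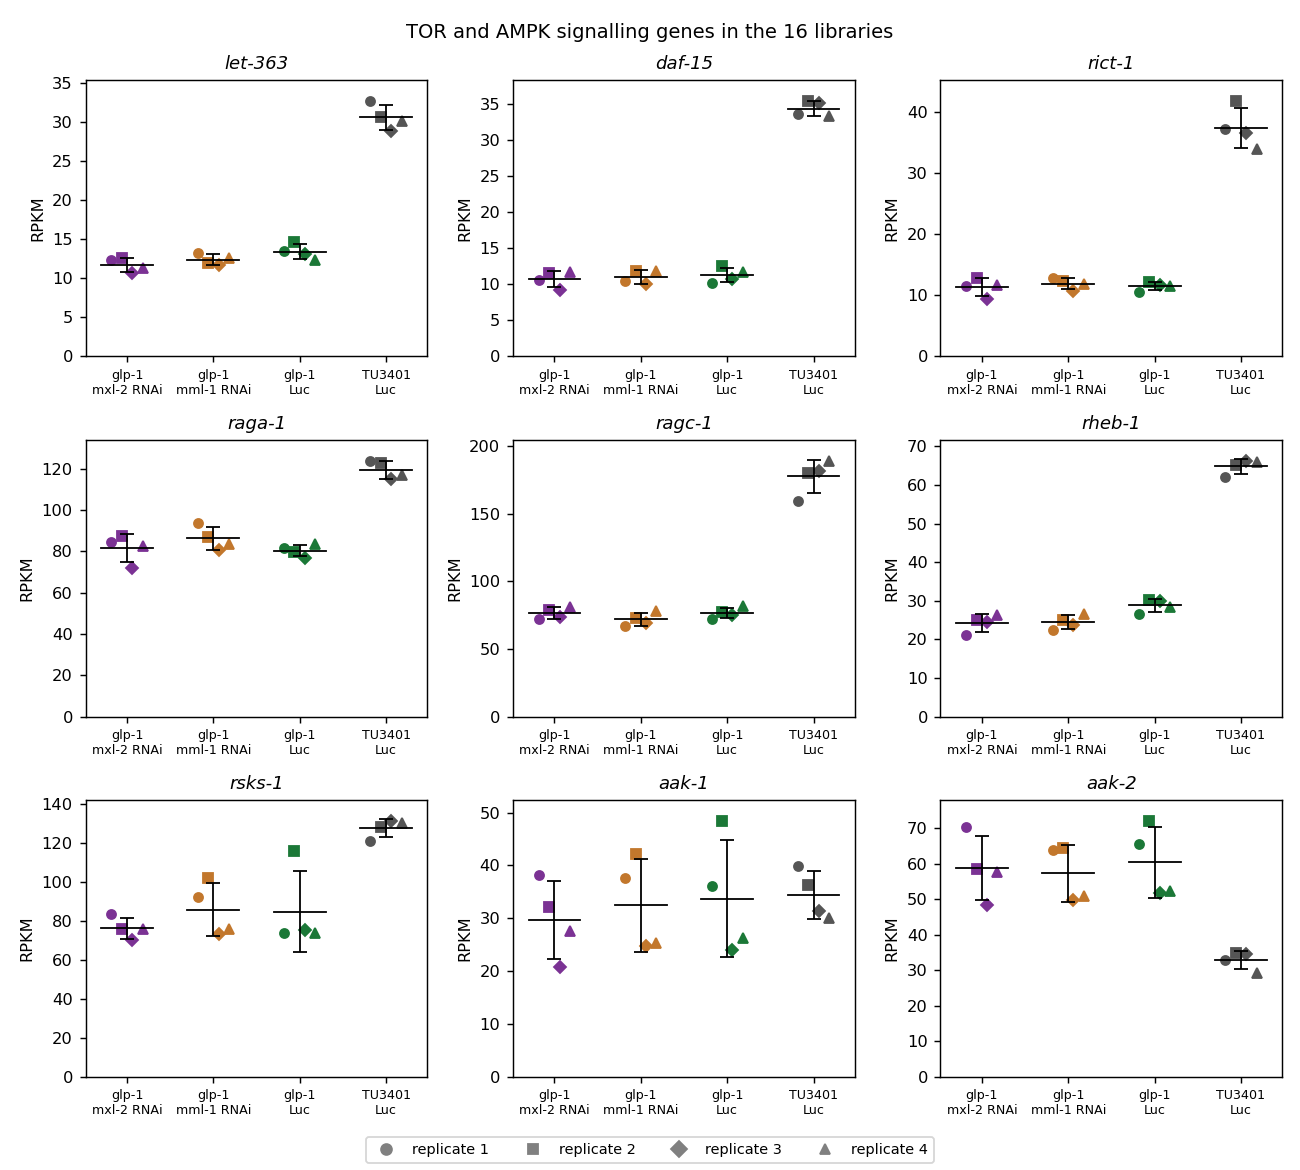
Expression of the 9 genes in RPKM (vertical axis, from 0, own scale in each panel) in the 4 groups (horizontal axis), with 1 point for each library, a marker shape for each replicate number, and the mean with its SD in black. The TOR genes sit lower in the 3 glp-1 groups than in TU3401, aak-2 sits higher, and aak-1 overlaps, at 20.7 to 48.4 RPKM in glp-1 against 30.1 to 39.9 RPKM in TU3401.

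The kinase itself is encoded by let-363 (WBcel235 chromosome I, 5245743 to 5263424, plus strand). Its 4 glp-1 Luc libraries had 13.5, 14.6, 13.1 and 12.4 RPKM, against 32.6, 30.6, 28.8 and 30.1 RPKM in TU3401 Luc. Every glp-1 library lay far below every TU3401 library and the groups did not overlap. The level in glp-1 was 0.438 times that in TU3401, and the log2 fold change was -1.13 (SE 0.07, limma adjusted p = 4.78e-07).

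The scaffold of TOR complex 1, the Raptor gene daf-15 (chromosome IV, 9386208 to 9394979, plus strand), had 10.2, 12.5, 10.8 and 11.7 RPKM in glp-1 Luc, against 33.6, 35.4, 35.04 and 33.2 RPKM in TU3401 Luc. The Rictor gene rict-1 (chromosome II, 13098239 to 13116810, minus strand), which defines TOR complex 2, had 10.5, 12.1, 11.6 and 11.6 RPKM in glp-1 Luc, against 37.1, 41.7, 36.5 and 33.9 RPKM in TU3401 Luc. For both scaffolds the groups were far apart without overlap. The log2 fold changes were -1.53 for daf-15 (SE 0.08, limma adjusted p = 7.27e-08) and -1.62 for rict-1 (SE 0.08, limma adjusted p = 7.37e-08). Mean levels of the 2 scaffolds were close to each other within each genotype. The daf-15 to rict-1 ratio of RPKM was 0.983 ± 0.0466 in glp-1 Luc and 0.923 ± 0.0595 in TU3401 Luc (SD, n = 4 each). An exact permutation test of the log2 ratio of RPKM + 1, 2-sided over 70 splits, gave p = 0.171. That result does not show that the ratio was the same in both genotypes.

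The other subunits of the complexes differed more. MLST-8, a subunit shared by both complexes and listed in the tables by its sequence name C10H11.8, had 6.22, 8.40, 6.93 and 6.78 RPKM in glp-1 Luc, against 45.1, 45.04, 42.8 and 46.3 RPKM in TU3401 Luc. The gene sinh-1, the worm Sin1 gene of TOR complex 2, had 2.48, 2.71, 2.98 and 2.67 RPKM in glp-1 Luc, against 14.3, 15.8, 14.5 and 13.6 RPKM in TU3401 Luc. Both were lower in all glp-1 libraries without overlap, with log2 fold changes of -2.51 (SE 0.09, limma adjusted p = 6.99e-09) for C10H11.8 and -2.07 (SE 0.09, limma adjusted p = 1.91e-08) for sinh-1. Because the scale is RPKM plus a pseudocount of 1, the change of a low gene such as sinh-1 is understated.

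The Rag GTPases work as a pair that brings TOR complex 1 to the lysosome when amino acids are present. The gene raga-1 (chromosome II, 11301359 to 11302776, plus strand) had 81.6, 79.6, 76.8 and 83.5 RPKM in glp-1 Luc, against 123.7, 122.8, 114.8 and 116.7 RPKM in TU3401 Luc. Its partner ragc-1 (chromosome IV, 11603613 to 11604933, minus strand) had 72.5, 77.02, 74.9 and 81.8 RPKM in glp-1 Luc, against 159.7, 180.4, 181.3 and 189 RPKM in TU3401 Luc. Neither gene's groups overlapped, and the gap was wider for ragc-1. The log2 fold changes were -0.57 for raga-1 (SE 0.06, limma adjusted p = 1.59e-05) and -1.20 for ragc-1 (SE 0.07, limma adjusted p = 3.11e-07). The raga-1 to ragc-1 ratio of RPKM was accordingly 1.05 ± 0.0501 in glp-1 Luc and 0.676 ± 0.0704 in TU3401 Luc (SD, n = 4 each), without overlap. The difference of the log2 ratio was 0.64 (exact permutation test, 2-sided p = 0.0286, the smallest that 4 against 4 allows, and 0.0429 adjusted over the 3 ratios tested). Multiplying a whole library by a factor leaves such a ratio of RPKM as it is. The share of other gene pairs that would reach this p was not counted, so the ratio tests have no background.

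Rheb, the small GTPase that activates TOR complex 1, is encoded by rheb-1 (chromosome III, 9454163 to 9456030, minus strand). It had 26.6, 30.1, 30.1 and 28.3 RPKM in glp-1 Luc, against 62.1, 65.2, 66.2 and 65.9 RPKM in TU3401 Luc. The glp-1 libraries were all lower, at 0.444 times the TU3401 level, and the log2 fold change was -1.15 (SE 0.06, limma adjusted p = 1.62e-07).

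Downstream of TOR complex 1 stands the S6 kinase, encoded by rsks-1 (chromosome III, 11245120 to 11252281, plus strand), whose loss is known to lengthen life in this worm. It had 73.9, 115.8, 75.4 and 74.01 RPKM in glp-1 Luc, against 121.3, 128.3, 131.2 and 130.3 RPKM in TU3401 Luc. Replicate 2 of glp-1 Luc stood well above the other 3 of its group and close to the TU3401 libraries, though still below them all. The log2 fold change was -0.61 (SE 0.14, limma adjusted p = 0.00294). Without that library it was -0.77 for rsks-1 (limma adjusted p = 4.95e-06).

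**Figure D2:**
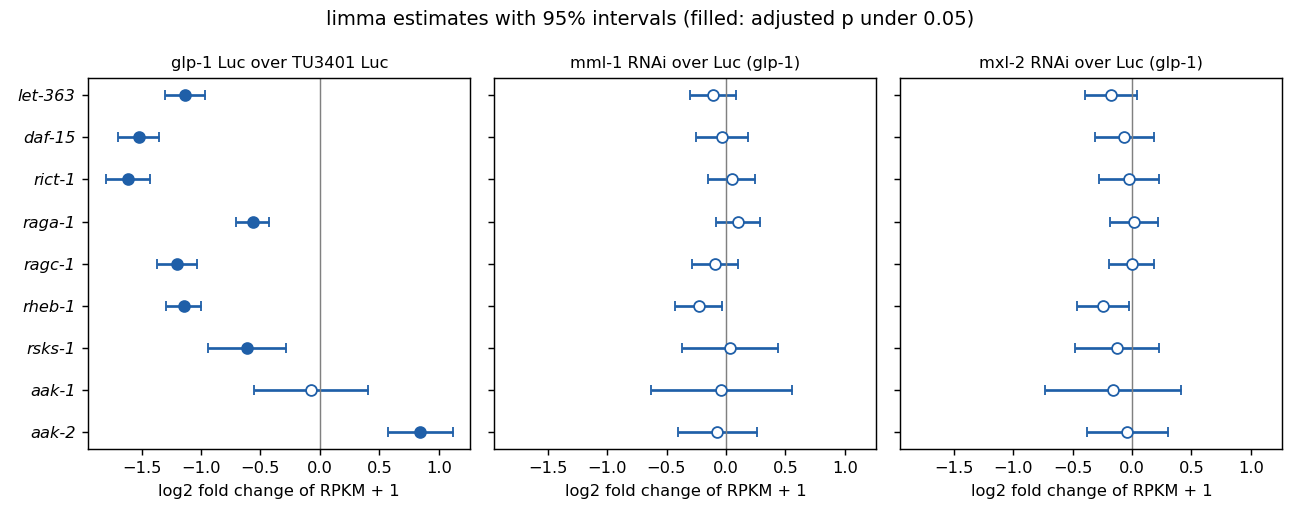
The log2 fold changes of RPKM + 1 (horizontal axis) for the 9 genes (vertical axis) in 3 comparisons, as limma estimates with 95% intervals, filled where the adjusted p was under 0.05. In glp-1 Luc over TU3401 Luc the estimates run from -1.62 for rict-1 to 0.85 for aak-2, and in the knockdown comparisons no gene is filled.

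The catalytic AMPK subunits took different courses. The gene aak-2 (chromosome X, 16796087 to 16803398, plus strand) had 65.6, 71.9, 51.8 and 52.3 RPKM in glp-1 Luc, against 32.9, 34.8, 34.7 and 29.3 RPKM in TU3401 Luc. All glp-1 libraries were higher than all TU3401 libraries, 1.84 times as high on average, and the log2 fold change was 0.85 (SE 0.12, limma adjusted p = 0.00012). The gene aak-1 (chromosome III, 8756990 to 8761090, minus strand) had 36.04, 48.4, 24.04 and 26.3 RPKM in glp-1 Luc, against 39.9, 36.3, 31.4 and 30.1 RPKM in TU3401 Luc. The glp-1 libraries of aak-1 reached both above and below the TU3401 libraries. Its log2 fold change was -0.07 (SE 0.21, 95% interval -0.55 to 0.40, limma adjusted p = 0.743), and with quantile scaling it turned to 0.79 (limma adjusted p = 0.00213). The aak-2 to aak-1 ratio of RPKM was 1.86 ± 0.285 in glp-1 Luc and 0.965 ± 0.114 in TU3401 Luc (SD, n = 4 each). The log2 ratio differed by 0.92 (exact permutation test, 2-sided p = 0.0286, the smallest possible, and 0.0429 adjusted over the 3 ratios). For this ratio too, no background over other gene pairs was counted.

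The beta and gamma genes of AMPK were mostly higher. Of the 7, 5 were called higher, 1 lower and 1 not called, and the median log2 fold change was 0.84. Of all genes tested, 41.5% were called higher and 46.1% lower. The scaffold gene aakb-1 had 99.04, 114.6, 80.3 and 74.6 RPKM in glp-1 Luc, against 25.7, 20.7, 22.3 and 21.01 RPKM in TU3401 Luc. Every glp-1 library of aakb-1 was far above TU3401, and its log2 fold change was 1.98 (SE 0.14, limma adjusted p = 8.08e-07). The other beta gene, aakb-2, had 39.3, 47.9, 42.7 and 42.02 RPKM in glp-1 Luc, against 62.9, 60.9, 62.5 and 54.5 RPKM in TU3401 Luc, without overlap. Its log2 fold change was -0.48 (SE 0.08, limma adjusted p = 0.000413), but it turned to 0.28 with quantile scaling (limma adjusted p = 0.00411). For aakb-2, the authors' deposited table gave a log2 fold change of -0.32 with a false discovery rate of 0.078.

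Among the gamma genes, aakg-4 differed most. It had 56.8, 42.1, 35.01 and 29.4 RPKM in glp-1 Luc, against 7.11, 6.65, 6.24 and 5.66 RPKM in TU3401 Luc. The glp-1 libraries were all higher but spread widely, and the log2 fold change was 2.46 (SE 0.18, limma adjusted p = 1.15e-06). The log2 fold changes were 1.08 for aakg-3, 0.84 for aakg-2 and 0.52 for aakg-1 (limma adjusted p = 0.000131, 0.000101 and 0.00758). Most abundant in TU3401 was aakg-5, which averaged 62.3 ± 7.18 RPKM in glp-1 Luc and 60.7 ± 3.66 RPKM in TU3401 Luc (SD, n = 4 each), and its log2 fold change of 0.03 (limma adjusted p = 0.762) became 0.69 with quantile scaling (limma adjusted p = 7.69e-05).

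The make-up of each subunit class, as a share of its summed RPKM, thus differed. The aak-2 transcript made up 64.8 ± 3.67% of the alpha class in glp-1 Luc and 48.97 ± 2.98% in TU3401 Luc (SD, n = 4 each). The aakb-1 transcript made up 67.8 ± 3.78% of the beta class in glp-1 Luc and 27.1 ± 1.58% in TU3401 Luc, so that the more abundant beta gene was aakb-1 in the glp-1 Luc libraries and aakb-2 in the TU3401 libraries. In the gamma class, aakg-4 held 19.3 ± 3.16% in glp-1 Luc and 4.82 ± 0.32% in TU3401 Luc, while aakg-5 held 27.04 to 32.7% in glp-1 Luc and 41.96 to 49.9% in TU3401 Luc. The shares of the beta and gamma classes are descriptions with no test.

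**Figure D3:**
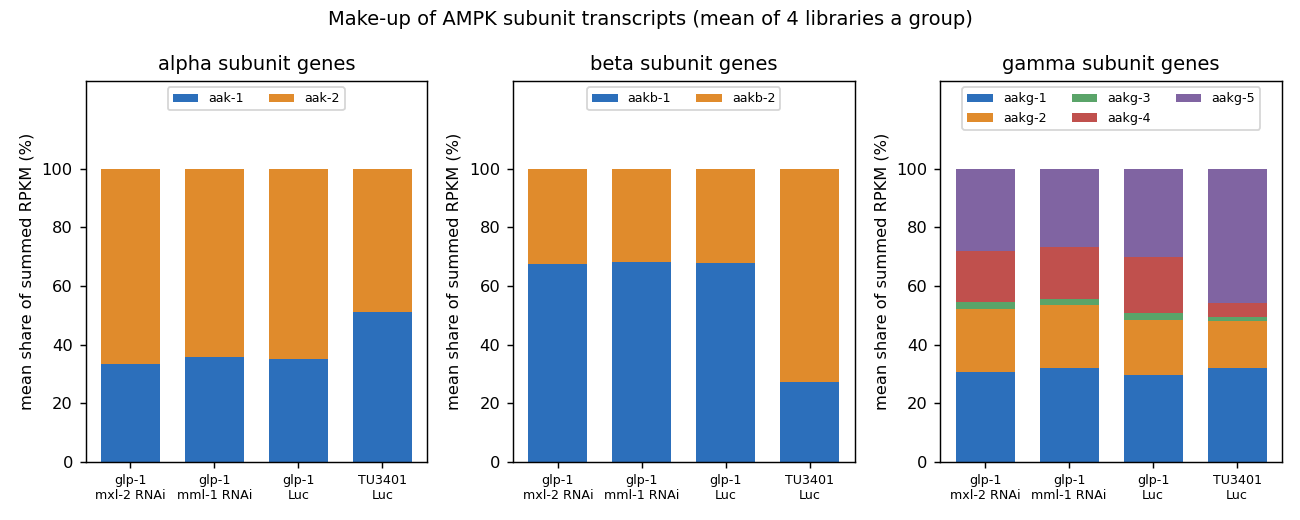
Mean share of summed RPKM (vertical axis, percent) held by each gene of the alpha, beta and gamma classes in the 4 groups (horizontal axis), as stacked bars over 4 libraries a group. The aakb-1 share is 67.5, 68.3 and 67.8% in the glp-1 groups on mxl-2 RNAi, mml-1 RNAi and Luc, against 27.1% in TU3401.

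RPKM is scaled per length of coding sequence, and by it levels were ordered across the 9 genes. Other differences between genes that may bear on RPKM were not examined. In glp-1 Luc the highest means were 84.8 ± 20.7 RPKM for rsks-1, 80.4 ± 2.87 RPKM for raga-1 and 76.5 ± 3.99 RPKM for ragc-1, and the libraries of these 3 overlapped. Then came aak-2 at 60.4 ± 9.99 RPKM, aak-1 at 33.7 ± 11.1 RPKM and rheb-1 at 28.8 ± 1.66 RPKM, of which aak-1 and rheb-1 overlapped. The lowest were let-363 at 13.4 ± 0.944 RPKM, rict-1 at 11.5 ± 0.674 RPKM and daf-15 at 11.3 ± 1.02 RPKM (SD, n = 4 throughout), and libraries of daf-15 overlapped those of both rict-1 and let-363. In TU3401 Luc the order began with ragc-1 at 177.6 ± 12.5 RPKM, apart from all others, followed by rsks-1 at 127.8 ± 4.49 RPKM and raga-1 at 119.5 ± 4.39 RPKM, which overlapped. Next was rheb-1 at 64.8 ± 1.89 RPKM, again apart. The remaining 5, rict-1, aak-1, daf-15, aak-2 and let-363, lay between 30.6 and 37.3 RPKM, and each overlapped its neighbour in the order. In glp-1 Luc every library of aak-2 lay above every library of let-363, daf-15 and rict-1, while in TU3401 Luc aak-2 overlapped all 3.

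The direction of aak-1 depended on the scaling of the libraries, and the sizes of the others changed, by over 1.5 times for all but ragc-1. Quantile scaling placed the all-gene median at 0.42 on the log2 scale, against -0.06 with RPKM as deposited. The fitted log2 fold changes of the TOR genes were smaller with it, at -0.24 for let-363 (limma adjusted p = 0.0335), -0.65 for daf-15, -0.74 for rict-1, -0.22 for raga-1, -0.94 for ragc-1, -0.33 for rheb-1 and -0.30 for rsks-1, all still called, while aak-2 stood at 1.59. Taken relative to that median, the log2 fold change with quantile scaling was -0.65 for let-363, -1.07 for daf-15, -1.16 for rict-1, -0.64 for raga-1, -1.36 for ragc-1, -0.75 for rheb-1 and -0.71 for rsks-1. On the same relative scale it was 1.17 for aak-2 and 0.38 for aak-1. Of all genes called, 6730 were higher and 5488 lower with quantile scaling, against 5626 and 6253 with RPKM as deposited. In the authors' deposited table the 7 TOR genes were also lower, at log2 fold changes of -0.41 for raga-1 to -1.54 for rict-1, aak-2 was higher at 1.04, and aak-1 stood at 0.14 with a false discovery rate of 1.0.

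The rest of the 2 pathways was described in lists drawn up by function. Beside the list counts, 87.6% of all genes tested were called, 46.1% as lower and 41.5% as higher. Of 9 lysosomal regulators of TOR complex 1, 8 were called lower and 1 higher, and the list's median log2 fold change was -1.52. Those that differed most were npp-18, the worm gene of the nucleoporin and GATOR component Seh1, nprl-3, of the GATOR part that inhibits TOR complex 1, and the folliculin gene flcn-1. The npp-18 transcript averaged 11.2 ± 0.823 RPKM in glp-1 Luc and 127 ± 6.54 RPKM in TU3401 Luc (SD, n = 4 each), with -3.40 as the log2 fold change (limma adjusted p = 2.66e-10). The values were -2.69 for nprl-3 and -2.33 for flcn-1 (limma adjusted p = 8.67e-10 and 9.61e-08). The single gene called higher was sesn-1, for sestrin, an inhibitor of TOR complex 1 in mammals, at 61.9 ± 8.38 RPKM in glp-1 Luc and 19.4 ± 2.28 RPKM in TU3401 Luc (log2 fold change 1.62, limma adjusted p = 1.09e-06).

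Of 11 genes of insulin and PI3-kinase signalling, the other growth pathway that meets TOR, 3 were called higher, 5 lower and 3 not called, with a median of -0.14. Quantile scaling made this 6 higher and 3 lower. The catalytic and adaptor genes of PI3-kinase, age-1 and aap-1, had log2 fold changes of -2.96 and -2.83 (limma adjusted p = 5.18e-10 and 6.49e-10). The genes called higher were the kinase genes akt-2 and sgk-1 and the insulin receptor substrate gene ist-1, at 2.20, 0.79 and 1.84.

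TOR complex 1 is known to promote translation and to restrain autophagy. Of 17 genes of these outputs measured, 5 were called higher, 11 lower and 1 not called, with a median of -0.90, and quantile scaling made this 7 higher and 8 lower. The largest changes were in the cap-binding genes ife-3 at -4.18 and ife-5 at -3.17 and in the nucleolar fibrillarin gene fib-1 at -4.13 (limma adjusted p = 9.26e-11, 3.88e-08 and 2.52e-09). The genes called higher were the autophagy genes unc-51 and lgg-1, the autophagy regulator hlh-30, the nucleolar size regulator ncl-1 and the cap-binding gene ife-2. Their log2 fold changes were 0.57, 0.65, 1.06, 0.59 and 0.26. The autophagy gene atg-13 was called lower, at -0.98, but with quantile scaling it stood at -0.09 (limma adjusted p = 0.492) and the call was lost.

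On the AMPK side, 4 of 5 genes of the LKB1 complex, which activates AMPK by phosphorylation in mammals, were called lower and 1 higher, with a median of -2.17. The LKB1 gene par-4 averaged 8.39 ± 0.858 RPKM in glp-1 Luc and 65.3 ± 2.20 RPKM in TU3401 Luc (SD, n = 4 each; log2 fold change -2.82, limma adjusted p = 1.37e-09). Of the 3 MO25 genes, mop-25.3 and mop-25.2 were lower at -4.59 and -2.17, and mop-25.1 was higher at 0.58 (limma adjusted p = 6.76e-10, 6.55e-09 and 0.000656). Of 4 AMPK-related kinases, 3 were called higher, kin-29 at 1.31, unc-82 at 1.09 and sad-1 at 0.44 (limma adjusted p = 2.51e-06, 1.42e-06 and 0.0468). The call of sad-1 was lost with the replicate number as a block (limma adjusted p = 0.0542).

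Of 11 genes of lipid metabolism and transcription placed downstream of AMPK, 4 were called higher, 4 lower and 3 not called, with a median of -0.005, and quantile scaling made this 8 higher and 2 lower. The lipase gene atgl-1 was lower at -1.66 (limma adjusted p = 2.98e-05). The acetyl-CoA carboxylase gene pod-2 and the fatty acid synthase gene fasn-1, both of fatty acid synthesis, were higher at 1.37 and 1.10 (limma adjusted p = 1.45e-05 and 1.89e-06). These counts stand beside sums of tissue marker transcripts that differed between the genotypes. Summed marker RPKM in glp-1 Luc and in TU3401 Luc was 5563 to 6056 and 1538 to 1754 for 8 muscle genes, 817 to 1036 and 613 to 668 for 10 neuron genes, and 2548 to 4169 and 1304 to 1814 for 7 intestine genes. The sum of 8 hypodermis genes was 828 to 1129 in glp-1 Luc and 537 to 755 in TU3401 Luc, most of it from col-19. Single genes weighed heavily in other sums too. In glp-1 Luc, asp-1 averaged 2436 RPKM beside a mean intestine sum of 3353 RPKM. The neuron gene snb-1, which was not called, averaged 556 RPKM beside a mean neuron sum of 899 RPKM. Called higher were 8 of 8 muscle, 9 of 10 neuron and 4 of 7 intestine markers, while 4 of the 5 hypodermis markers tested were called lower. The shares over all genes were 41.5% higher and 46.1% lower. The part of tissue make-up in the pathway differences was not tested.

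**Figure D4:**
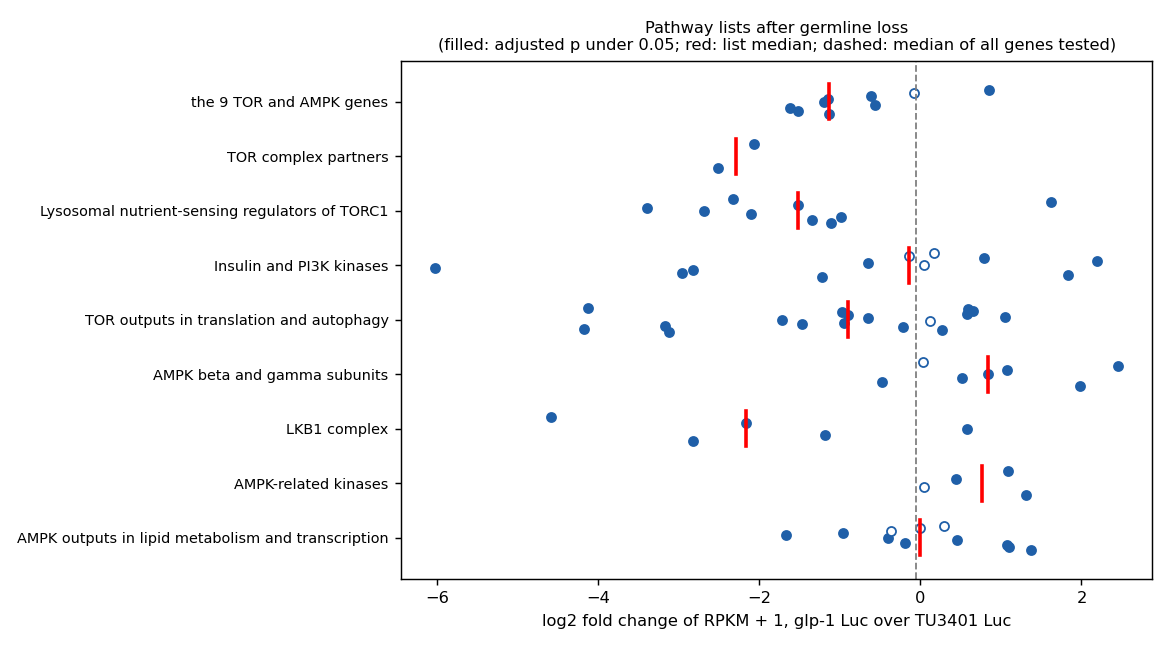
The log2 fold changes of RPKM + 1, glp-1 Luc over TU3401 Luc (horizontal axis), for each measured gene of the 9 TOR and AMPK genes and of 8 pathway lists (vertical axis), filled where the limma adjusted p was under 0.05, with list medians in red and the median of all genes dashed. The medians range from -2.29 for the TOR complex partners C10H11.8 and sinh-1 to 0.84 for the AMPK beta and gamma subunits, beside -0.06 for all genes.

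The same order of genotypes held with all 12 glp-1 libraries. For the 7 TOR genes every glp-1 library, whatever its RNAi, lay below every TU3401 library, and for aak-2 every one lay above, where 42.0% of all genes were lower and 34.4% higher in this way. The TOR kinase let-363 ranged over 10.7 to 14.6 RPKM with a median of 12.5 RPKM in the glp-1 libraries, against 28.8 to 32.6 RPKM in TU3401. The aak-2 transcript ranged over 48.4 to 71.9 RPKM with a median of 58.1 RPKM in the glp-1 libraries, against 29.3 to 34.8 RPKM in TU3401. Of the 2 complex partners and 7 beta and gamma genes, 5 lay above, 3 below and 1, aakg-5, overlapped.

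The second question was whether neuron-directed RNAi of mml-1 or mxl-2 altered the 9 genes in glp-1 worms. Whole bodies were measured, so a change confined to neurons could go unseen, and neither target was lower in the group labelled for it. None of the 9 was called in either comparison by limma or by voom on the recovered reads, which called 0.0238% and 0.0874% of all genes under mml-1 RNAi and mxl-2 RNAi. At an unadjusted limma p under 0.05, 1 of 9 passed in each, rheb-1. Few genes were called anywhere, 2 of 12591 (0.0159%) under mml-1 RNAi and 13 of 12581 (0.103%) under mxl-2 RNAi, where 7.82% and 6.54% passed unadjusted. The comparisons share the 4 glp-1 Luc libraries, so like values in both are not separate evidence.

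The Rheb gene had 21.1, 24.9, 24.4 and 26.4 RPKM under mxl-2 RNAi and 22.5, 25.12, 23.6 and 26.6 RPKM under mml-1 RNAi, against 26.6, 30.1, 30.1 and 28.3 RPKM under Luc. All knockdown libraries were below all Luc libraries, the nearest by a narrow margin. Under mxl-2 RNAi the log2 fold change of rheb-1 was -0.24 (95% interval -0.47 to -0.02, limma adjusted p = 0.697). Under mml-1 RNAi it was -0.23 (95% interval -0.42 to -0.03, limma adjusted p = 0.553). Groups lay wholly apart on the lower side for 1.97% of all genes under mxl-2 RNAi and 2.61% under mml-1 RNAi. As its groups lay apart, rheb-1 was also lower in 4 of 4 pairs of equal number in each knockdown. Without groups lying apart, let-363 under mxl-2 RNAi and ragc-1 and aak-2 under mml-1 RNAi were lower in 4 of 4 pairs. Under mml-1 RNAi raga-1 was higher in 4 of 4 pairs. The share of all genes with 4 of 4 pairs in the same direction was not counted, so these pair counts have no background. With the replicate number as a block the limma adjusted p of rheb-1 was 0.21 under mxl-2 RNAi and 0.156 under mml-1 RNAi. In the authors' deposited tables its false discovery rate was 1.0 in both. The difference therefore did not pass a test over all genes.

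The kinase gene let-363 had 12.3, 12.6, 10.7 and 11.3 RPKM under mxl-2 RNAi and 13.2, 11.9, 11.6 and 12.6 RPKM under mml-1 RNAi, against 13.5, 14.6, 13.1 and 12.4 RPKM under Luc. The groups overlapped, and the log2 fold changes were -0.18 under mxl-2 RNAi (95% interval -0.40 to 0.04, limma adjusted p = 0.862) and -0.11 under mml-1 RNAi (95% interval -0.30 to 0.09, limma adjusted p = 0.903). For aak-2 they were -0.04 under mxl-2 RNAi (95% interval -0.38 to 0.30) and -0.07 under mml-1 RNAi (95% interval -0.41 to 0.26). The intervals were widest for aak-1, -0.73 to 0.41 under mxl-2 RNAi and -0.63 to 0.56 under mml-1 RNAi. They were narrower for raga-1, -0.19 to 0.22 under mxl-2 RNAi and -0.09 to 0.28 under mml-1 RNAi. These intervals come from the fit without the replicate number. With it as a block the SE of aak-1 was 0.12 under mxl-2 RNAi and 0.07 under mml-1 RNAi, against 0.25 and 0.26 without it, and none of the 9 genes was called. An interval that includes 0 does not show that a level was the same.

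Of the remaining genes, the log2 fold changes were -0.06 for daf-15, -0.02 for rict-1, -0.004 for ragc-1 and -0.13 for rsks-1 under mxl-2 RNAi, and -0.03, 0.05, -0.09 and 0.03 under mml-1 RNAi. Over the 9 genes the median was -0.06 under mxl-2 RNAi, with 8 of 9 estimates below 0, and -0.04 under mml-1 RNAi, with 6 of 9 below 0. The medians over all genes were 0.0004 and -0.005. The aak-2 to aak-1 ratio was 2.02 ± 0.242 under mxl-2 RNAi, 1.81 ± 0.240 under mml-1 RNAi and 1.86 ± 0.285 under Luc (SD, n = 4 each), with no test made. The raga-1 to ragc-1 ratio was 1.07 ± 0.0909, 1.21 ± 0.139 and 1.05 ± 0.0501 in the same groups. No gene of the 8 pathway lists was called in either knockdown.

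Between the knockdowns, mxl-2 RNAi against mml-1 RNAi, none of the 9 genes was called, nor was any of 12540 genes tested (0.0%), by limma or by voom. At an unadjusted limma p under 0.05 it was 0 of the 9 genes and 111 of all genes (0.885%). The estimates ran from -0.16 for rsks-1 to 0.09 for ragc-1.

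Within groups the members varied unequally, and part of this ran with the replicate number in the titles. The coefficient of variation in glp-1 Luc was 32.9% for aak-1, 24.4% for rsks-1 and 16.5% for aak-2, and between 3.57% and 9.01% for the other 6. In TU3401 Luc aak-1 again varied most, at 13.1%. For aak-1, replicates 1 and 2 were higher than replicates 3 and 4 in all 4 groups, at 32.1 to 48.4 RPKM against 20.7 to 27.6 RPKM over the 3 glp-1 groups. For aak-2 this held in the 3 glp-1 groups and not in TU3401, by the narrowest margin under mxl-2 RNAi, at 70.3 and 58.5 RPKM against 48.4 and 57.7 RPKM. What an equal number stands for is not stated, and what libraries of equal number share was not tested further.

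**Figure D5:**
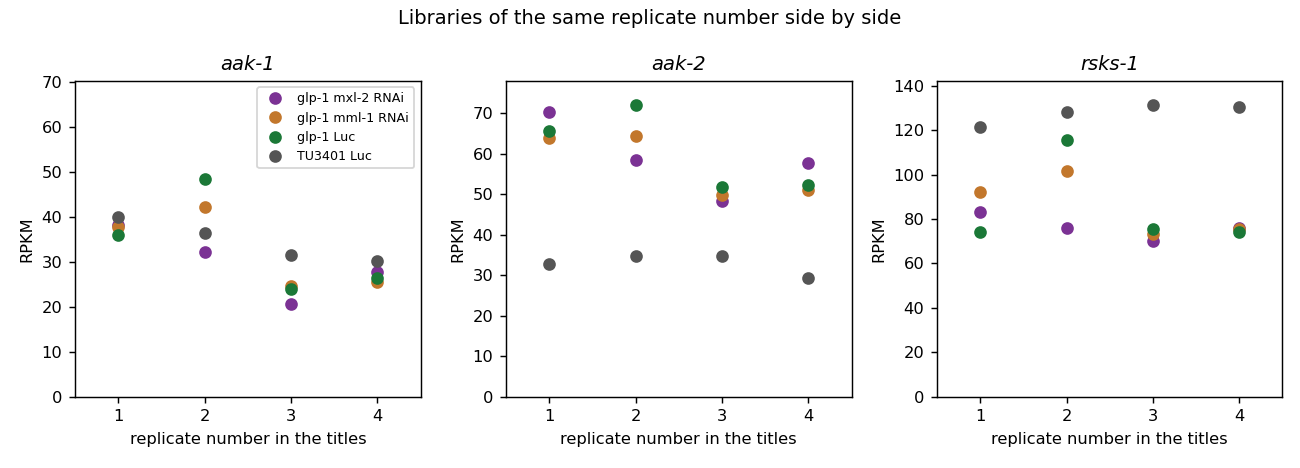
RPKM of aak-1, aak-2 and rsks-1 (vertical axes, from 0) against the replicate number in the titles (horizontal axis), 1 point a library, coloured by group. Replicates 1 and 2 of aak-1 lie above replicates 3 and 4 in every group, and rsks-1 of glp-1 Luc replicate 2 stands at 115.8 RPKM beside 73.9 to 75.4 RPKM in the other 3.

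The genes whose profiles were most like those of the kinases were ranked by root mean square distance between centred log2(RPKM + 1) profiles over the 16 libraries, among 13488 genes. Nearest to let-363 were the proteasome subunit gene rpn-6.1 (distance 0.0663, Pearson r = 0.993), the dynein heavy chain gene dhc-1 (distance 0.0808) and the phosphatase subunit gene pptr-2 (distance 0.0878). Nearest to aak-2 were the kinase gene hpk-1 (distance 0.0793, r = 0.979), the phospholipase gene ipla-1 (distance 0.0883) and F59C12.3 (distance 0.0947). The hpk-1 transcript averaged 44.5, 47.4 and 50.99 RPKM in glp-1 on mxl-2 RNAi, mml-1 RNAi and Luc, against 26.6 RPKM in TU3401. The profile of aak-1 had no neighbour as close, the nearest being gpcp-2, lin-59 and aha-1 (distances 0.125, 0.126 and 0.134). The 16 points share 4 groups, so these values are descriptions of these libraries.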

How the data were processed

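RNA-seq was analysed from 16 whole-body libraries, 4 in each of 4 groups set by the sample titles. The authors deposited RPKM per gene in 3 tables of 2 groups each. The RPKM of the glp-1 Luc libraries were the same wherever the tables share them (largest difference 0.0), so the tables were joined by gene name. The authors also deposited log2 fold changes, p-values and false discovery rates per table, quoted only where named. Per the submitters' processing notes, bcl2fastq and TopHat2 2.1.1 were used, and the build they name is GRCh38, a human build. The worm build, the read counter and whether strand was used are not given in the sources used here. Genes were located in the Ensembl release 115 annotation of WBcel235. For all 9 genes the length behind the RPKM equalled the coding length with its stop codon, and no coding sequence of theirs overlapped another gene's exon.

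Values of log2(RPKM + 1) were tested with limma 3.58.1 in R 4.3.3 (lmFit, eBayes with trend and robust variances, 2-sided) on the 8 libraries of each comparison, for genes with a mean RPKM of at least 1. A Benjamini-Hochberg adjusted p under 0.05 over all genes was a call. All 9 genes passed the filter in every comparison. Fitting was tested on simulated data with 200 changed genes. Ratios between genes in a library used exact permutation tests. Whole reads were recovered from RPKM for all 25332 loci above 0 (100.0%, tolerance 0.001), and voom was run on them. Reads carry no molecular identifiers, so statements on depth cover counting error only. Alternatives were a pseudocount of 0.1, no filter, quantile and median-ratio scaling, the replicate number as a block, all groups in 1 fit, voom, and leaving out each library. Deviations from group means correlated between libraries of equal number in each comparison. Over 13498 genes r ran from 0.108 to 0.276 for glp-1 Luc and TU3401 Luc, and from 0.215 to 0.690 among the glp-1 groups. For replicate 3 of glp-1 Luc and TU3401 Luc r was 0.108, below the 0.245 with another number. The main fits and the ratio tests treated the libraries as unpaired, and the number entered the fits only as the block among the alternatives.

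The text names all 9 genes, the other TOR complex and AMPK subunits, up to 3 called genes of largest change from each list, the 3 nearest profiles, and 4 genes that check the labels. A result of the insulin list that this rule would name is not reported here. Further list genes were named after their values were seen, to account for those called against the list's direction. The 9 genes and the lists were chosen with earlier results of these data known.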

Additional observations from a re-analysis of the deposited data

Results flagged for a closer look

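In 88 groups of 4 libraries, 22 genes in 4 groups each, 6 held a library whose gap to the nearest of the others, as a share of the group's range, exceeded Dixon's 95% critical value, which chance does in about 1 group of 20. The S6 kinase gene rsks-1 stood at 115.753 RPKM in glp-1 Luc replicate 2, with the other 3 at 73.9 to 75.4 RPKM. The mml-1 transcript stood at 91.5001 RPKM in mml-1 RNAi replicate 2, with the others at 22.9 to 28.9 RPKM. The mxl-2 transcript stood at 733.084 RPKM in mxl-2 RNAi replicate 3, with the others at 29.3 to 90.7 RPKM, and at 308.291 RPKM in mml-1 RNAi replicate 3, with the others at 25.4 to 26.98 RPKM. In TU3401 Luc, glp-1 stood at 75.6282 RPKM in replicate 2, with the others at 69.2 to 70.3 RPKM, and sid-1 at 148.504 RPKM in replicate 3, with the others at 111.6 to 117.2 RPKM. Of the 9 TOR and AMPK genes, rsks-1 was the only one with such a library.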

How the results depend on the processing

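In glp-1 Luc against TU3401 Luc, 8 of the 9 genes were called with RPKM as deposited and kept their direction and call in all 15 alternatives, while aak-1 was called with quantile scaling only. Quantile scaling turned the log2 fold change positive for aak-1 (0.793), pptr-1 (0.621), ife-4 (0.63), pha-4 (0.0815), aakb-2 (0.282), mdt-15 (0.419), crh-1 (0.494) and cpt-2 (0.45). It ended the calls of daf-2, akt-1, atg-13 and pha-4. The cause was not tested. Leaving out a library kept 8 of the 9 called and 11643 to 11921 of all genes. The calls among AMPK-related kinases were then 2 to 3, where sad-1 was lost. Among the 11 genes placed downstream of AMPK, 4 higher and 4 lower as reported, only 6 to 7 were called in any such fit. The calls were 14 to 16 of the 17 TOR outputs and 8 to 9 of the 11 insulin genes, and the other lists kept their counts. The log2 ratios ranged over 0.849 to 1.02 for aak-2 to aak-1, 0.594 to 0.702 for raga-1 to ragc-1 and 0.0518 to 0.12 for daf-15 to rict-1. With 7 libraries the exact test cannot go below 0.0571, so no ratio could pass.

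Against glp-1 Luc, none of the 9 genes was called under any alternative. The genes called of all genes under mml-1 RNAi, 2 as reported, were 6 with a pseudocount of 0.1, 60 with the replicate block, 39 with all 4 groups in 1 fit and 0 to 53 when a library was left out, with 53 without mml-1 RNAi replicate 4. Under mxl-2 RNAi, 13 as reported, they were 2 with no filter, 24 with the replicate block, 25 with all 4 groups in 1 fit and 1 to 16 when a library was left out. The block changed no call of the 9 genes and, of the listed genes, lost sad-1. The planned count test was not run because the deposited unit is RPKM, and voom was chosen in its place after seeing the data. Depth limits rheb-1 most, with 270 to 481 reads in a glp-1 library.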
